A study of Mus musculus with 20 samples.

Results

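Retinol uptake and binding protein genes were described in RNA-seq data of the mouse outer eyecup, the tissue that holds the retinal pigment epithelium (RPE) and the choroid. They were the 6 rows of the deposited table whose symbols are Stra6, Rbp4, Ttr, Rbp3, Crabp1 and Crabp2, out of 24411 genes in the table. All 6 passed the filter on low values, which left 18807 genes for testing. The study asked how this tissue responds when vitamin A is limited by diet, by loss of the retinol transporter STRA6, or by both. It held 20 libraries in 4 groups of 5. Each was described as made from both eyecups of 1 mouse, after the neural retina had been peeled off with the help of dispase.

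All mice were C57BL/6 by the labels and were raised on a standard chow rich in vitamin A until weaning, at about 28 days. They then received either a vitamin A sufficient (VAS) diet with 4 IU/g or a vitamin A deficient (VAD) diet with 0 IU/g for 12 weeks. The 4 groups were VAS WT, VAD WT, VAS Stra6-/- and VAD Stra6-/-. The WT mice were bought from the Jackson Laboratory and the Stra6-/- mice were generated in house, so that genotype and source of the animals cannot be told apart.

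The genes lie apart in the genome (GRCm38, GENCODE vM21). Stra6 spans chr9:58063788-58153996 on the plus strand, with 19 exons in the transcript used for its length. Crabp1 lies on the same chromosome and strand at chr9:54764748-54773110. Rbp4 lies at chr19:38116629-38125281 on the minus strand, Rbp3 at chr14:33954003-33964216, Ttr at chr18:20665280-20674321 and Crabp2 at chr3:87948666-87953376, the last 3 on the plus strand. All 6 are protein coding. The span of Stra6 overlaps Ccdc33 and Gm16131, but no exon bases are shared.

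Retinol leaves the liver bound to retinol binding protein, the product of Rbp4, which travels in the blood in a complex with transthyretin, the product of Ttr. STRA6 in the basolateral membrane of the RPE binds this carrier and moves retinol into the cell, where it is esterified and later turned into the chromophore of the visual pigments. RBP3, the interphotoreceptor retinoid binding protein, is secreted by photoreceptors and carries retinoids across the space between them and the RPE. CRABP1 and CRABP2 bind retinoic acid inside cells, and CRABP2 is known for delivering it to nuclear receptors.

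Promoter windows from RefSeq (GRCm38.p6) were searched for Stra6, Rbp4, Rbp3 and Crabp1. Ttr was left out of this search, and Crabp2 had no entry. The window of Rbp3 is shown. It alone of the windows searched held the core motif GGATTA (other strand TAATCC) of the photoreceptor factors CRX and OTX2. From library to library, Rbp3 moved with rod genes, but about as closely with markers of other cell types, as described below. The window covers the 250 bases before the first transcribed base, chr14:33953753-33954002 on the plus strand, with the motif in capitals.
Rbp3: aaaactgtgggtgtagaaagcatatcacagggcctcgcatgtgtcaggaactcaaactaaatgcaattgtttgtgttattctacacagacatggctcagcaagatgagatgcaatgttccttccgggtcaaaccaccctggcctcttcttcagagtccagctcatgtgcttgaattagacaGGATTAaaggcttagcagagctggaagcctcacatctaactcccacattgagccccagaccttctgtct
The motif started at position -69 relative to the first transcribed base. It was present on either strand in 2054 of 32851 promoter windows of the same length, or 6.25%. The nuclear receptor motif AGGTCA (other strand TGACCT), present in 14.0% of the windows, was found in none of the windows of the 4 genes. A match of letters is a description and not a site of binding.

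Libraries held between 13331903 and 21878614 reads, with a median of 17785927. Values are reads divided by a size factor for each library, called normalized values here. No source states that the libraries of a group came from separate litters or cages, so p-values measure the spread between these libraries. Several libraries stood apart or went against their labels. In VAD WT, replicates 2 and 4 had rod markers summing to between 292141 and 292561, while replicates 1, 3 and 5 lay between 113403 and 117453. The sex-linked transcripts also differed between groups. Xist was at most 38.4 in VAS WT and at least 15320 in VAS Stra6-/-, where the Y-linked Kdm5d and Uty were at 0. In VAD WT it was 10912 to 11767 in replicates 2 and 4 and at most 234 in the others. VAD WT replicates 2 and 4 also held Y-linked transcripts. There the mean log2 level of the 5 sex-linked transcripts was 7.15 and 7.19. In VAS Stra6-/-, where Xist was higher, it was at most 3.28. The 5 libraries labelled VAD Stra6-/- held both Xist (3570 to 4280) and the Y-linked Ddx3y (741 to 970). Whether each library with both came from 1 mouse was not tested. Best1, a defining RPE gene, was low everywhere, between 7.09 and 44.6. Of the other RPE markers, none was at 0 throughout any group. Genotype and the sex-linked difference cannot be told apart on the VAS diet. Nor can diet and that difference between the 2 groups labelled Stra6-/-, where 4 of 5 sex-linked transcripts were called higher under the VAD label. Xist of each library labelled VAD Stra6-/- lay above VAD WT replicates 1, 3 and 5 and below replicates 2 and 4. Genotype and the sex-linked difference thus cannot be told apart on the VAD diet either, though no sex-linked transcript was called there. In WT, the sex-linked difference sets VAD WT replicates 2 and 4 apart from VAS WT, and the interaction uses all 4 groups.

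Stra6 was the targeted gene. In VAS WT its normalized values were 2661, 2742, 2414, 2449 and 2689 in replicates 1 to 5. In VAS Stra6-/- they were 564, 599, 648, 642 and 694, so that every library lay below every VAS WT library. In VAD WT they were 693, 1340, 697, 1529 and 669.
Replicates 2 and 4, the libraries rich in rod genes, were the high ones, and the other VAD WT libraries lay within the range of VAS Stra6-/- or just above it. In the libraries labelled VAD Stra6-/- the values were 2126, 1973, 2116, 2393 and 2208, all above VAD WT and all below VAS WT. A gene-level value does not show which part of the transcript these reads came from.

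The difference between VAS Stra6-/- and VAS WT was -2.04 ± 0.18 (log2 fold change ± SE, n = 5 per group, limma adjusted p = 3.38e-08), a mean 4.12 times lower. Stra6 also fell in VAD WT relative to VAS WT, by 1.49 ± 0.18 on the log2 scale (limma adjusted p = 6.74e-06). Without VAD WT replicates 2 and 4 this difference was -1.91. Against the label, Stra6 was higher under the label VAD Stra6-/- than under VAS Stra6-/-, by 1.78 ± 0.18 (limma adjusted p = 1.88e-08), and higher than in VAD WT, by 1.23 ± 0.18 (limma adjusted p = 3.92e-06). The direction of each comparison that uses these libraries rests on their labels.

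**Figure D1:**
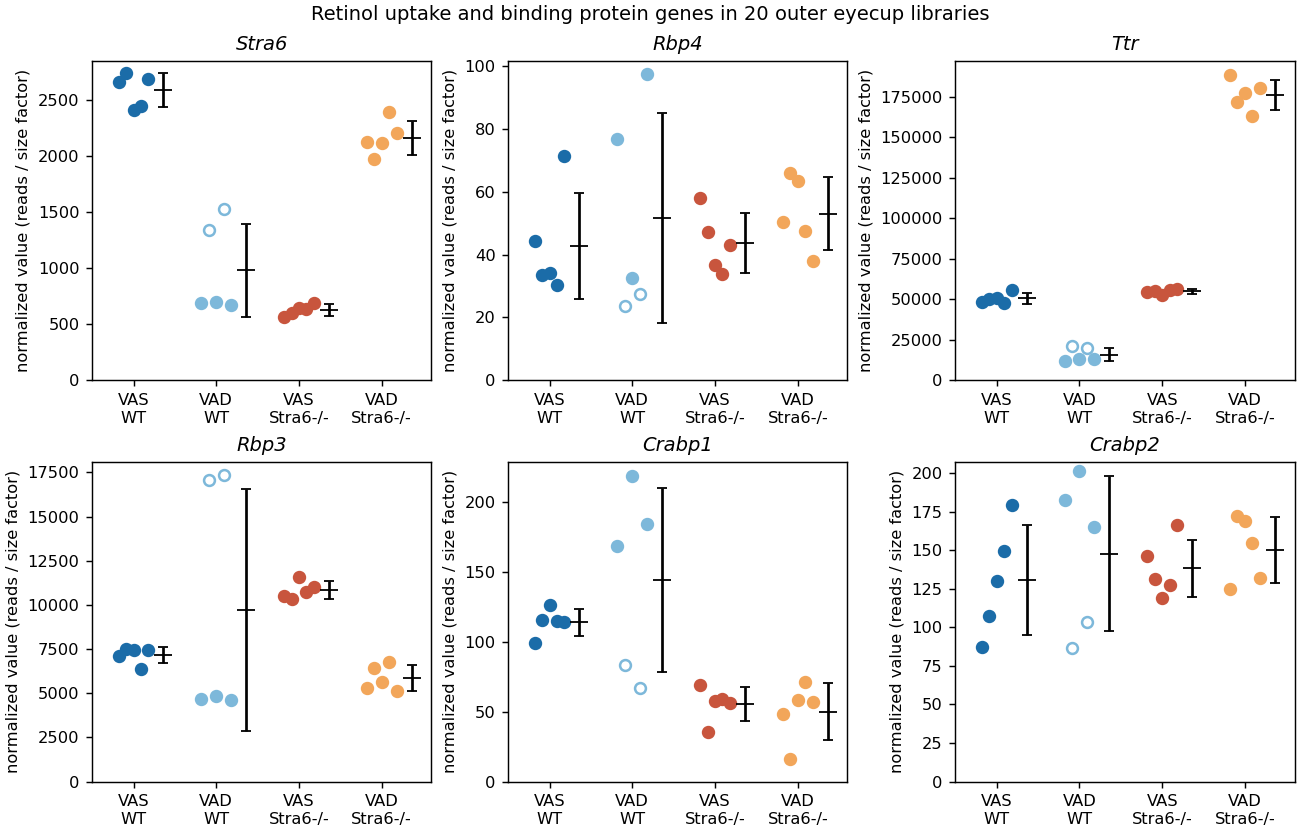
Normalized value (reads divided by the size factor, linear axis from 0) of the 6 genes in 20 libraries, with points as replicates 1 to 5 from left to right and bars as mean ± SD (n = 5). Open circles are VAD WT replicates 2 and 4. Stra6 lies between 564 and 694 in VAS Stra6-/- and between 1973 and 2393 in the libraries labelled VAD Stra6-/-, and Ttr reaches 162880 or more only in the latter.

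Stra6 was also set against the mean log2 value of 8 RPE markers outside the retinoid cycle, within each library. In bulk tissue, fewer cells of a type and less RNA per cell cannot be told apart. The summed level of these markers was 16038.5 to 17053 in VAS WT, 7262 to 10155 in VAD WT, 14010 to 14723 in VAS Stra6-/- and, under the label VAD Stra6-/-, 56134 to 58458. In the last group, 7 of the 8 markers were called higher than in VAS Stra6-/- and the same number higher than in VAD WT.

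The log2 ratio of Stra6 to these markers was 1.45 ± 0.09 in VAS WT, 0.88 ± 0.25 in VAD WT, -0.58 ± 0.12 in VAS Stra6-/- and -0.66 ± 0.11 in the libraries labelled VAD Stra6-/- (mean ± SD, n = 5 each). The 2 groups labelled Stra6-/- lay below both WT groups with no overlap. The ratio differed by -2.03 between VAS Stra6-/- and VAS WT, and by -1.54 between the labels VAD Stra6-/- and VAD WT (exact two-sided permutation test, adjusted p = 0.0159 over 36 tests for both). Between the 2 groups labelled Stra6-/- the difference was -0.08 and the values overlapped (exact permutation p = 0.286). With RPE markers of the retinoid cycle in place of this list, the same difference was -0.74 (exact permutation, adjusted p = 0.0136 over 24 tests), and that of VAD WT from VAS WT shrank from -0.57 to -0.09, which no longer passed (adjusted p = 0.392). The ratio under the Stra6-/- label was below that of WT on the same diet with both lists.

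**Figure D2:**
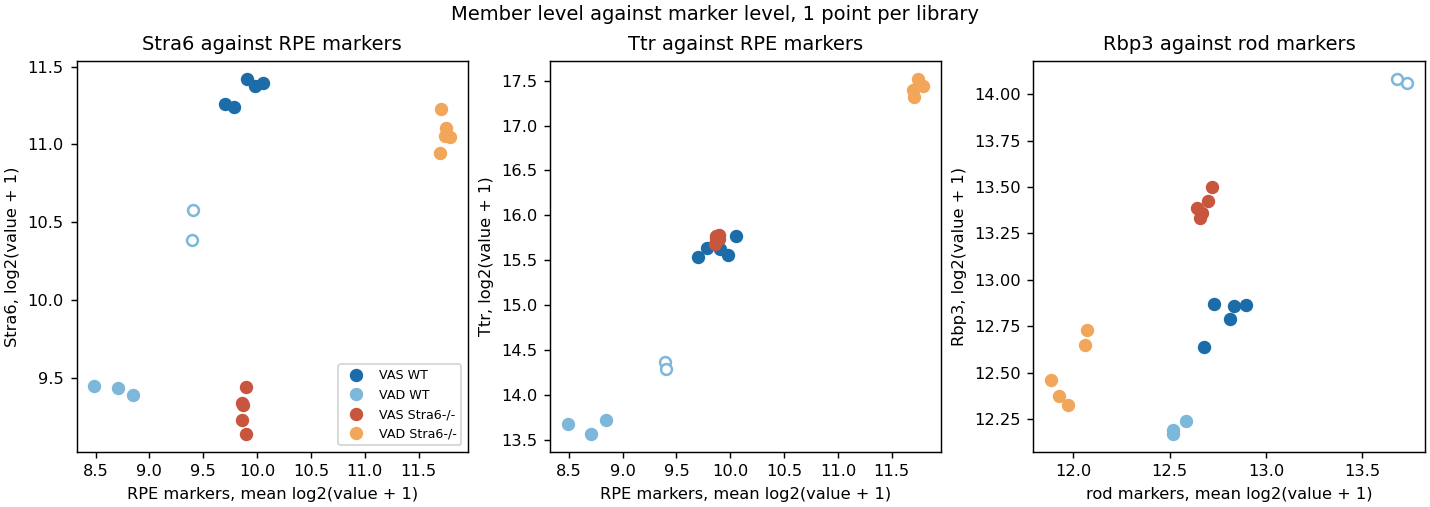
Log2(value + 1) of Stra6 and Ttr against the mean log2 value of RPE markers outside the retinoid cycle, and of Rbp3 against that of rod markers, 1 point per library. Open circles are VAD WT replicates 2 and 4. Stra6 of both groups labelled Stra6-/- sits lower for its marker level than in either WT group. Ttr rises with the marker level from VAD WT to the libraries labelled VAD Stra6-/- (r = 0.967 over 20 libraries, as a description).

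Rbp4, the gene of the circulating retinol carrier, was low in every library. Its values were 44.2, 33.6, 34.0, 30.2 and 71.4 in VAS WT, and 57.9, 47.2, 36.6, 33.8 and 43.1 in VAS Stra6-/-. In VAD WT they were 76.6, 23.7, 32.6, 27.4 and 97.5, and in the libraries labelled VAD Stra6-/- 50.4, 65.8, 63.5, 47.4 and 38.0. Between 23 and 80 reads stood behind each value.
All 4 groups overlapped, and no neighbours in the order of their means differed (exact permutation test, adjusted p from 0.848 to 0.952). The 95% interval of the log2 difference between VAS Stra6-/- and VAS WT ran from -0.67 to 0.83, and that between VAD WT and VAS WT from -0.64 to 0.86. The spread between libraries (CV of 21.8% to 64.7% within a group) exceeded that from counting alone (13.3% to 15.1%).

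Ttr, the gene of the carrier's partner in blood, was by contrast among the most abundant transcripts, at place 11 of the 18807 genes by mean value. In VAS WT its values were 48271, 50347, 51070, 47574 and 55894.5. In VAS Stra6-/- they were 54376, 55196, 52520, 56019 and 56156. These groups overlapped, and their log2 difference was 0.12 ± 0.14 with an interval from -0.18 to 0.42.
In VAD WT they were 12105, 21081, 13048, 19972 and 13495, all below every VAS library. In the libraries labelled VAD Stra6-/- they were 188038, 171934, 177238, 162880 and 180158, all above every other library. Per kb of transcript, Ttr ranged from 13440 in VAD WT to 148440 in the libraries labelled VAD Stra6-/-, while Rbp4 ranged from 36.8 to 45.7 across the group means.

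Ttr fell in VAD WT relative to VAS WT, by 1.70 ± 0.14 (log2, limma adjusted p = 6.34e-08). It rose in the libraries labelled VAD Stra6-/-, by 1.68 ± 0.14 relative to VAS Stra6-/- (limma adjusted p = 1.96e-09) and by 3.50 ± 0.14 relative to VAD WT (limma adjusted p = 1.67e-14), from a mean of 15940 to 176049.
The RPE markers moved in the same directions. Relative to those outside the retinoid cycle, the log2 ratio of Ttr was 5.74 ± 0.11 in VAS WT, 4.95 ± 0.14 in VAD WT, 5.87 ± 0.03 in VAS Stra6-/- and 5.69 ± 0.06 in the libraries labelled VAD Stra6-/- (mean ± SD, n = 5 each). The difference between VAD WT and VAS WT was -0.79 on this scale, and that between the 2 groups labelled Stra6-/- was -0.18 (exact permutation test, adjusted p = 0.0159 for both). With markers of the retinoid cycle, these 2 differences were -0.30 and -0.84. The difference of the libraries labelled VAD Stra6-/- from VAD WT turned from 0.73 to -0.45 with that list. The part of RPE content in the Ttr values was not tested.

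The log2 ratio of Rbp4 to Ttr was -10.25 in VAS WT and -10.29 in VAS Stra6-/-, which overlapped. It was -8.44 in VAD WT, 1.81 above VAS WT (exact permutation test, adjusted p = 0.0286), with some overlap. This call was lost when any 1 of VAS WT replicates 1 to 4 or VAD WT replicates 1, 3, 4 and 5 was left out (exact permutation test, adjusted p of 0.0544 to 0.0571). The ratio was -11.70 in the libraries labelled VAD Stra6-/-, below each library of VAS Stra6-/- and VAD WT (exact permutation test, adjusted p = 0.0159). Relative to the RPE markers outside the retinoid cycle, the log2 ratio of Rbp4 fell by 1.59 from VAS Stra6-/- to those libraries (exact permutation test, adjusted p = 0.0159). The same ratio differed by 0.09 between VAS Stra6-/- and VAS WT, within the spread (exact permutation test, adjusted p = 0.777). Rbp4 itself did not fall between the 2 groups labelled Stra6-/-. Its means were 43.7 in VAS Stra6-/- and 53.0 under the VAD label, with overlap. There 7 of the 8 RPE markers were called higher, with a median of 1.95, and Ttr was 1.68 higher on the log2 scale.

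Rbp3 had the widest relative spread within a group, in VAD WT. Its values were 7082, 7482, 7424, 6379 and 7450 in VAS WT, and 4680, 17087, 4837, 17354 and 4607 in VAD WT. VAD WT replicates 2 and 4 were thus 3.66 times the mean of the other 3. In VAS Stra6-/- they were 10525, 10319, 11599, 10717 and 11014, each above every VAS WT library.
In the libraries labelled VAD Stra6-/- they were 5315, 6416, 5640, 6791 and 5127, which overlapped VAS WT. Rbp3 was 1.51 times higher on average in VAS Stra6-/- than in VAS WT, a log2 difference of 0.60 ± 0.30 that did not pass in the fit of all 20 libraries (limma adjusted p = 0.148), whose shared spread includes the split within VAD WT. It passed without VAD WT replicates 2 and 4 (limma adjusted p = 2.85e-07) and in the fit of these 2 groups alone (limma adjusted p = 5.94e-06).

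Between VAS Stra6-/- and the libraries under the VAD label, Rbp3 fell, by 0.89 ± 0.30 on the log2 scale (limma adjusted p = 0.0143). Comparisons with VAD WT depended on which libraries were kept. With all 5, VAD WT differed from VAS WT by 0.15 ± 0.30 and the libraries labelled VAD Stra6-/- from VAD WT by -0.44 ± 0.30, neither of which passed. With replicates 1, 3 and 5 alone, the first was -0.60 (limma adjusted p = 2.17e-06) and the second 0.31 (limma adjusted p = 0.00127), both in the opposite direction.

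Rbp3 followed the rod genes from library to library. With group means subtracted, genes whose levels were most like it over the 20 libraries, of 13520 compared, included Slc6a6 with r = 0.992 and Cdhr1, a photoreceptor cadherin, with r = 0.991. These points share libraries and size factors and are dominated by VAD WT replicates 2 and 4, so r is given as a description. On the same measure, Rbp3 had r = 0.988 with the mean of the rod markers, but also 0.980 with stromal fibroblast markers and -0.991 with surface epithelium markers.

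The log2 ratio of Rbp3 to 10 rod markers was 0.01 ± 0.07 in VAS WT, 0.73 ± 0.04 in VAS Stra6-/- and 0.52 ± 0.12 in the libraries labelled VAD Stra6-/- (log2, mean ± SD, n = 5 each). In VAD WT it was -0.33, 0.33, -0.34, 0.41 and -0.35, so that replicates 2 and 4 remained high. VAS Stra6-/- exceeded VAS WT by 0.71 with no overlap (exact permutation test, adjusted p = 0.0159). The 2 groups labelled Stra6-/- differed by -0.20 (exact permutation test, adjusted p = 0.0159).
The summed rod marker level was 129944 to 147937 in VAS WT, 145639 to 157404 in VAS Stra6-/- and 75476 to 87061 in the libraries labelled VAD Stra6-/-, where 6 of 10 were called lower than in VAS Stra6-/-. Cone markers, which Rbp3 is also expressed with, summed to 2790 to 3590 in VAS WT and 788 to 877 in VAS Stra6-/-, where 9 of 9 were called lower. With cone markers as the reference, the difference of the ratio between the 2 groups labelled Stra6-/- turned to 0.81. The part of either cell type in the Rbp3 values was not tested.

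Crabp1, a retinoic acid binding protein found in amacrine cells of the retina among other cells, was lower under the Stra6-/- label on both diets. Its values were 99.2, 115, 126, 115 and 114 in VAS WT, and 69.1, 35.1, 58.0, 59.1 and 56.2 in VAS Stra6-/-, with no overlap. In VAD WT they were 169, 83.4, 219, 66.8 and 185. In the libraries labelled VAD Stra6-/- they were 48.4, 16.2, 58.3, 71.1 and 56.7.
Here VAD WT replicates 2 and 4 were the low ones, and replicate 4 lay within the range of the libraries labelled VAD Stra6-/-. Values rested on 18 to 154 reads. The mean was 2.06 times lower in VAS Stra6-/- than in VAS WT, a log2 difference of -1.06 ± 0.36 (limma adjusted p = 0.0331). Leaving out any 1 of VAS WT replicates 2 to 5 or VAS Stra6-/- replicates 2 to 5 ended this call (limma adjusted p of 0.0506 to 0.0932), as did using no filter (0.0539), while the difference in these fits stayed between -1.09 and -0.90. In the fit of these 2 groups alone the limma adjusted p was 0.000766. In the libraries labelled VAD Stra6-/- Crabp1 was lower than in VAD WT by 1.51 ± 0.36 on the log2 scale (limma adjusted p = 0.00111), and by 2.04 without VAD WT replicates 2 and 4. It did not differ between the 2 groups labelled Stra6-/- beyond their spread (-0.26, interval -1.004 to 0.488).

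Relative to 5 amacrine markers, Crabp1 fell by 1.01 on the log2 scale from VAS WT to VAS Stra6-/- (exact permutation test, adjusted p = 0.0159). Between the labels VAD Stra6-/- and VAD WT the same ratio differed by -0.999 with overlap and did not pass (exact permutation test, adjusted p = 0.317). These markers summed to 3918 to 4696 in VAS WT and 3594 to 3693 in VAS Stra6-/-, and 1 of 5 was called lower. Crabp1 ends 3.29 Mb before Stra6 starts, on the same chromosome. Of the 119 other tested genes within 5 Mb of Stra6, a window chosen after the values were seen, 14 were called lower and 11 higher in VAS Stra6-/- than in VAS WT, 21.0% in all. Of all tested genes, 26.6% were called in that comparison.

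Crabp2 showed no difference between groups in the fit of all 20 libraries. Its values were 87.4, 108, 130, 149 and 179 in VAS WT, and 146, 132, 119, 128 and 167 in VAS Stra6-/-. In VAD WT they were 183, 86.5, 201, 104 and 165, and in the libraries labelled VAD Stra6-/- 125, 172, 169, 154 and 132. The groups overlapped throughout, and no neighbours in the order of their means differed (exact permutation test, adjusted p from 0.848 to 0.950).
The interval of the log2 difference between VAS Stra6-/- and VAS WT ran from -0.36 to 0.59. Without VAD WT replicates 2 and 4, which were again low, Crabp2 was 0.52 higher in VAD WT than in VAS WT (limma adjusted p = 0.0489). Relative to 9 stromal fibroblast markers, the log2 ratio of Crabp2 differed by -1.70 between VAS Stra6-/- and the libraries under the VAD label, with no overlap (exact permutation test, adjusted p = 0.0159), where 9 of 9 of these markers were called higher. With surface epithelium markers, of which 9 of 9 were called lower, the same difference turned to 5.04. The other 3 comparisons of the ratio to stromal markers did not pass (adjusted p of 0.25 to 0.463). The difference of the libraries labelled VAD Stra6-/- from VAD WT passed without VAD WT replicates 2 and 4, at -1.67 (exact permutation test, adjusted p = 0.0476). Set against each other within a library, the 2 cellular binding proteins differed between the labelled genotypes. The log2 ratio of Crabp1 to Crabp2 was -0.16 ± 0.35 in VAS WT, -0.10 ± 0.31 in VAD WT, -1.32 ± 0.38 in VAS Stra6-/- and -1.70 ± 0.92 in the libraries labelled VAD Stra6-/- (mean ± SD, n = 5 each). Libraries labelled Stra6-/- and WT did not overlap on either diet, and differed by -1.17 on the VAS and by -1.60 on the VAD diet, the latter resting on the labels in doubt (exact permutation test, adjusted p = 0.0159 for both).

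**Figure D3:**
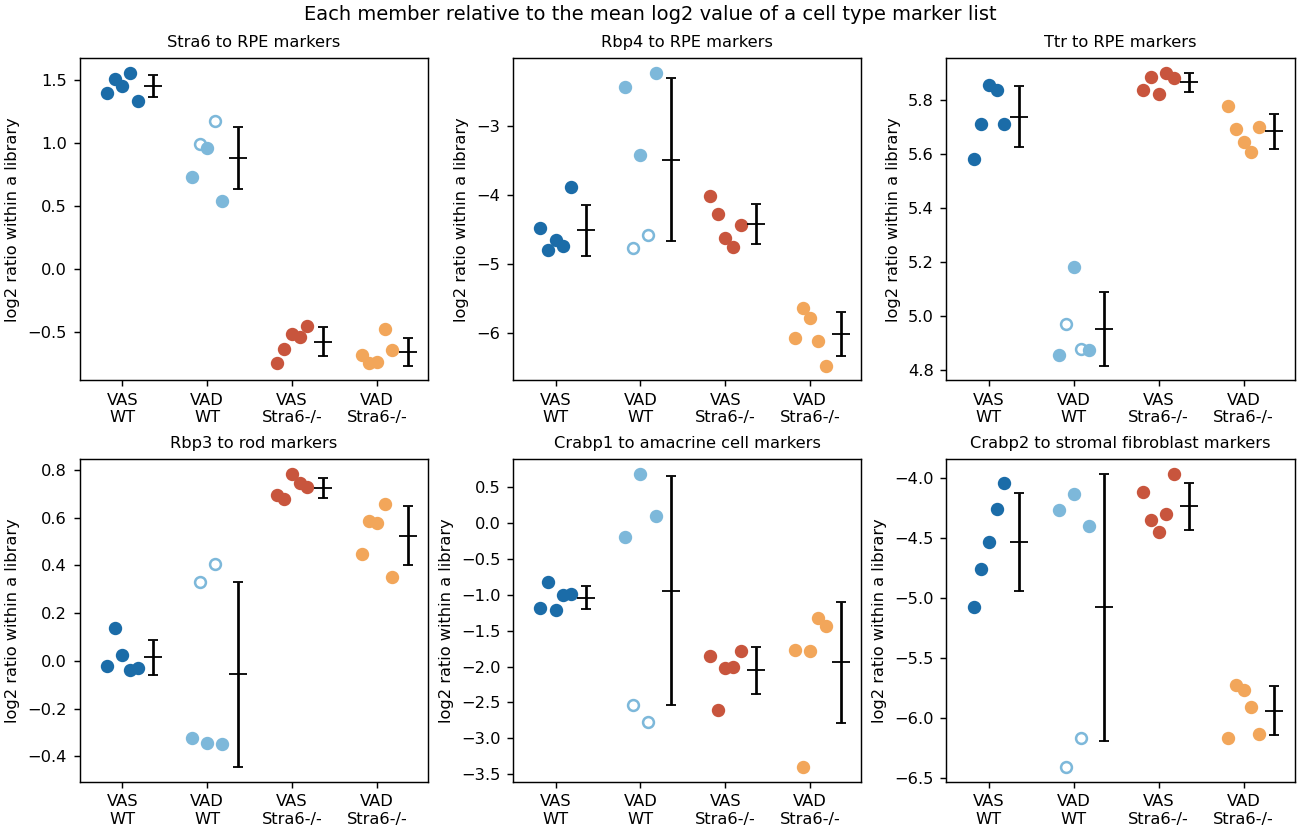
Log2 ratio of each gene to the mean log2 value of a marker list within a library (RPE markers outside the retinoid cycle for Stra6, Rbp4 and Ttr), points as replicates 1 to 5 from left to right, bars as mean ± SD (n = 5), open circles VAD WT replicates 2 and 4. Stra6 falls into 1 range for both groups labelled Stra6-/- (-0.75 to -0.45). Rbp3 relative to rod markers lies at 0.35 or above in these groups and between -0.35 and 0.41 in VAD WT.

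Counted together, 2 of the 6 genes were called in VAS Stra6-/- against VAS WT, Stra6 and Crabp1, both lower, where 26.6% of all tested genes were called (15.9% higher and 10.8% lower). Stra6 was the only 1 of the 6 with a log2 fold change beyond 2, a class that held 1.1% of tested genes. In VAD WT against VAS WT, 2 were called, Stra6 and Ttr, both lower, with 8.78% of all genes called (3.29% higher and 5.5% lower). In VAD Stra6-/- against VAS Stra6-/-, Stra6 and Ttr were called higher and Rbp3 lower, with 53.2% of all genes called (24.4% higher and 28.8% lower). In VAD Stra6-/- against VAD WT, Stra6 and Ttr were called higher and Crabp1 lower, with 55.9% of all genes called (26.2% higher and 29.6% lower). Ttr was the only 1 of the 6 beyond 2 on the log2 scale in this comparison, where 10.4% of genes were.
The diet effect in Stra6-/- minus that in WT was 3.27 ± 0.25 for Stra6, 3.39 ± 0.20 for Ttr and -1.04 ± 0.42 for Rbp3 (log2; limma adjusted p = 6.76e-10, 1.72e-11 and 0.0487), where 44.2% of genes were called (19.5% higher and 24.8% lower). The call of Rbp3 was lost in 17 of 20 fits that each left out 1 library (limma adjusted p of 0.0533 to 0.0852, all but those without VAD WT replicate 1, 3 or 5) and with no filter (0.101), and its value was -0.29 without both VAD WT replicates 2 and 4 (limma adjusted p = 0.0174). These comparisons share groups and are not independent of each other. For the interaction, RPE markers outside the retinoid cycle had a median of 3.385, with 7 of 8 called higher. Rod markers had a median of -1.048, with 7 of 10 called lower. The part of these cell types in the interactions of Stra6, Ttr and Rbp3 was not tested.

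**Figure D4:**
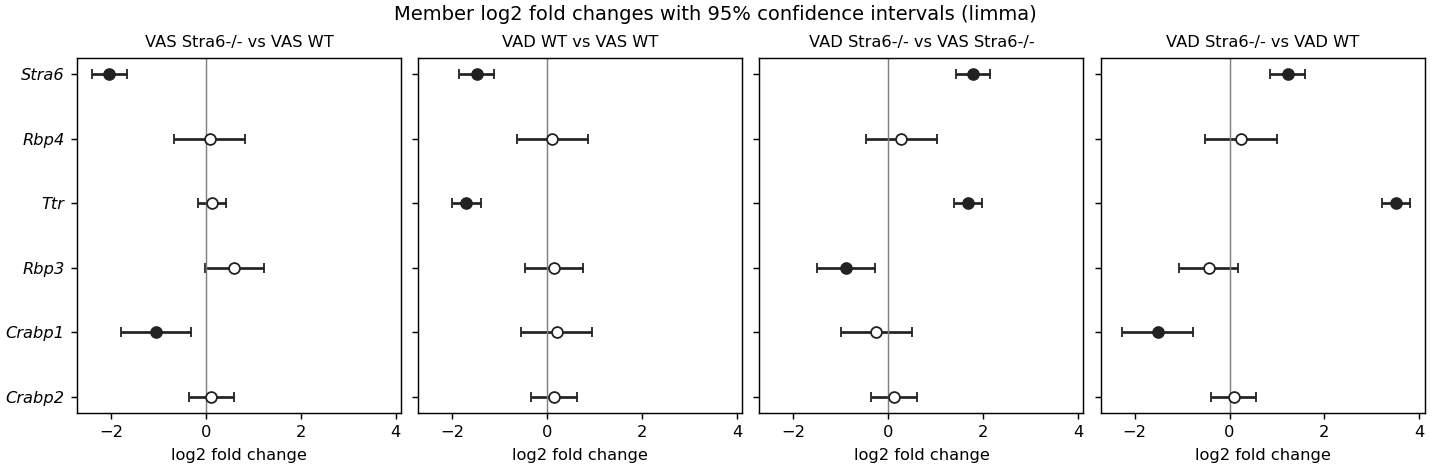
Log2 fold change (x axis) of the 6 genes (rows) in 4 comparisons, with 95% confidence intervals from limma, and filled points where the adjusted p is under 0.05. Ttr in VAD Stra6-/- against VAD WT (3.50) is the largest change of the 24 shown, and the intervals of Rbp4 and Crabp2 hold 0 in every panel.

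Per kb of transcript, Ttr was highest in all 4 groups, with Rbp3 next, between 1106 and 2046 per kb by group mean. Stra6 followed at 842 in VAS WT, 320 in VAD WT, 205 in VAS Stra6-/- and 703 in the libraries labelled VAD Stra6-/-. Crabp1 and Crabp2 were near each other in VAS WT, at 142 and 140 per kb, while in VAS Stra6-/- Crabp1 was at 69.2 and Crabp2 at 148. Among the group means of Stra6, VAS Stra6-/- and VAD WT were neighbours that did not differ beyond their spread (exact permutation test, adjusted p = 0.0612), while the libraries labelled VAD Stra6-/- and VAS WT above them did (adjusted p = 0.0286 for each step).

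Over the 20 libraries, the genes whose levels were most like that of Stra6 were Ptprz1 (Pearson r = 0.935), Dtx3 (0.931) and Pgf (0.922), out of 13520 compared. For Ttr they were Dhrs1 (0.992), Pon1 (0.991) and Tmem27 (0.991), for Rbp3 Vwf (0.951), and for Crabp1 Coq6 (0.914). Rbp4 and Crabp2 had no gene as close, with Fam181b (0.692) and 1810030O07Rik (0.789) at the top. The libraries fall into 4 groups that share size factors, so these values describe likeness only.

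Of 25 genes listed for uptake, binding, storage and response, 24 were tested. In VAS Stra6-/- against VAS WT, 3 were called higher and 6 lower, where 15.9% and 10.8% of all tested genes were. Cyp26a1, which degrades retinoic acid and is induced by it, was 4.38 times lower (log2 -2.18 ± 0.55, limma adjusted p = 0.00502). Of the 4 listed genes induced by retinoic acid, 2 were called lower, while Rarb and Cyp26b1 overlapped between these groups. Under the label VAD Stra6-/-, Cyp26a1 was instead 5.49 times higher on average than in VAS Stra6-/-, with no overlap. Of 8 genes of storage and the visual cycle, 3 were called lower and none higher, with a median log2 difference of 0.07. Lrat, Rpe65 and Rdh10 were 1.43, 1.39 and 1.30 times higher on average, with no overlap between libraries. They did not pass in the fit of all 20 libraries, whose shared spread includes the split within VAD WT. Of 8 genes of uptake and the lipoprotein route, 2 were higher and 1 lower. Stra6l, the second RBP4 receptor, was not called in any comparison, with log2 differences between -0.46 and -0.01.
In VAD WT against VAS WT, 11 were called lower and none higher, where 5.5% and 3.29% of all tested genes were. They included Lrat, which esterifies retinol (log2 -1.88 ± 0.24), Rdh5, a retinol dehydrogenase (-1.77 ± 0.08) and Lrp2, the endocytic receptor megalin (-1.41 ± 0.10). Of the RPE markers outside the retinoid cycle, 6 of 8 were called lower in the same comparison, with a median of -0.86, and the part of RPE content was not tested.

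In VAD Stra6-/- against VAS Stra6-/-, 17 were called higher and 4 lower, where 24.4% and 28.8% of all tested genes were. Lrat rose by 2.93 ± 0.24, Rpe65, the isomerase of the visual cycle, by 2.93 ± 0.24, and Rdh10, a retinol dehydrogenase, by 3.15 ± 0.34. Rbp2, a cellular retinol binding protein known from the intestine, fell by 4.32 ± 0.31 on the log2 scale, from a mean of 2829 to 141. In VAD Stra6-/- against VAD WT, 18 were called higher and 3 lower (26.2% and 29.6% of all tested genes), and for the interaction 17 were called higher and 3 lower (19.5% and 24.8%).
RPE markers outside the retinoid cycle had a median of 1.95 in the first of these comparisons and 3.05 in the second, and markers of surface epithelium medians of -5.03 and -4.80, with 9 of 9 called lower in both. In the libraries labelled VAD Stra6-/-, surface epithelium markers summed to between 26606 and 35460.5, against 908286 to 944580 on the VAS diet, with none at 0. Stromal fibroblast markers rose from sums of 42206 to 43358 on the VAS diet to sums of 208843 to 220712. The part of these cell types in the values of Ttr, Stra6 and the listed genes was not tested.

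**Figure D5:**
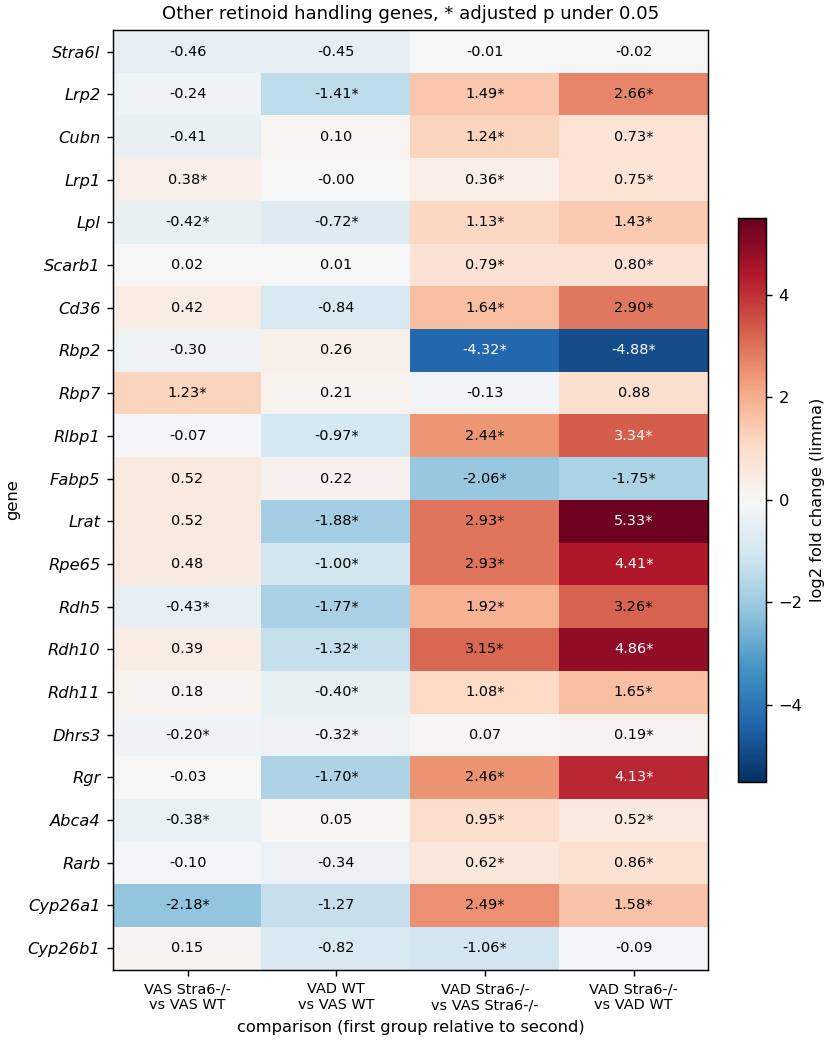
Log2 fold change (limma) of other genes of retinoid uptake, binding, storage and response in 4 comparisons, first group relative to second, with * where the adjusted p is under 0.05. Lrat reaches 5.33 in VAD Stra6-/- against VAD WT and Rbp2 -4.88, while every gene marked in VAD WT against VAS WT lies below 0.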

How the data were processed

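Outer eyecup RNA of 20 mice, 5 per group by the labels, was sequenced. STAR 2.5.3a, RSEM 1.2.30 and DESeq2 1.32.0 are named in the submitters' processing notes. The deposited values are a signal, made by the authors as the read count of a gene over 1 size factor per library, with no length or log scaling. In all 20 libraries every value was a whole multiple of what 1 read is worth (100% of values, tolerance 0.01). The recovered reads of 19 libraries entered the edgeR 4.0.16 and DESeq2 1.42.0 tests. VAD Stra6-/- replicate 1, whose step lay near 1 (1.008), was left out of these tests, though its values were whole multiples as well.

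Genes with at least 5 reads in all were kept. Values were tested as log2(value + 1) with limma 3.58.1 (R 4.3.3), 1 mean per group over all 20 libraries, with Benjamini-Hochberg adjustment over 18807 genes and calls at an adjusted p under 0.05. Fold changes are on this scale, which understates those of low genes. The script was tested on simulated data. Ratios within a library and neighbouring groups were compared with exact two-sided permutation tests (smallest p for 5 against 5, 0.00794), adjusted over 36 and 18 tests (scipy 1.17.1). Levels were divided by the length of 1 annotated transcript for comparison between genes.

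Named genes are the 6 members, all genes of the pathway lists, and the 3 genes most correlated with a member, given where a text turns on them. Some genes of these lists count in the totals but are not reported here by name. Members and lists were chosen with earlier results of these data known. Alternatives were another test, scaling, pseudocount (0.5 or 4), filter, the groups compared alone, the replicate number as a block, VAD WT replicates 1, 3 and 5 alone, other marker lists, and each library left out in turn.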

Additional observations from a re-analysis of the deposited data

Results flagged for a closer look

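In all, 3 library values lay far from the other 4 of their group by Dixon's gap test, which chance passes in about 1 of 20 groups, and 60 groups of members and ratios were examined. The log2 ratio of Crabp1 to amacrine cell markers was -2.61 in VAS Stra6-/- replicate 2 and -3.40 in the library labelled VAD Stra6-/- replicate 2. The log2 ratio of Crabp1 to Crabp2 was -3.33 in that same library, whose Crabp1 value rested on 18 reads.

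The interaction in limma passed for 3 of the 6 genes, though for Rbp3 the call was lost in 17 of 20 fits that each left out 1 library (limma adjusted p of 0.0533 to 0.0852) and with no filter (0.101). The diet effect in Stra6-/- minus that in WT was 3.27 for Stra6 (adjusted p = 6.76e-10), 3.39 for Ttr (1.72e-11) and -1.04 for Rbp3 (0.0487). Stra6 and Ttr fell with the VAD diet in WT and in Stra6-/- were higher under the VAD label. For the same interaction, RPE markers outside the retinoid cycle had a median of 3.385 and rod markers of -1.048. The part of these cell types was not tested.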

How the results depend on the processing

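The calls of Stra6 in all comparisons and of Ttr in all but VAS Stra6-/- against VAS WT kept their direction and passed under every alternative run. The cause of the changes below was not tested. With no filter on low values, 1 member was called in VAS Stra6-/- against VAS WT, and Crabp1 missed the threshold there (limma adjusted p = 0.0539), as did the interaction of Rbp3 (0.101). Without VAD WT replicates 2 and 4, 4 members were called in VAD WT against VAS WT and 7 of 9 ratios. In VAD Stra6-/- against VAD WT, 4 members and 9 of 9 ratios were called without them. Genes called were then 7124 in place of 1652 in VAD WT against VAS WT, and 7524 in place of 5010 in VAS Stra6-/- against VAS WT. In fits of only the groups compared they were 639 and 8208. That fit was not run for the interaction, which uses all groups. Also without those 2 libraries, the log2 difference turned to -0.60 for Rbp3 in VAD WT against VAS WT, to -0.26 for Rbp4, 0.31 for Rbp3 and -0.29 for Crabp2 in VAD Stra6-/- against VAD WT, and to -0.34 for the interaction of Rbp4. The ratio of Crabp2 to stromal markers in VAD WT against VAS WT turned to 0.26. The interaction of Crabp2 was 0.0124 in edgeR and 0.0176 in DESeq2. With the other marker list, the ratio turned sign for Crabp2 in all 4 comparisons (-0.30, 0.17, 5.04 and 4.57), for Rbp3 in VAD WT against VAS WT (0.26) and VAD Stra6-/- against VAS Stra6-/- (0.81), for Crabp1 in VAD WT against VAS WT (-0.0173) and for Ttr in VAD Stra6-/- against VAD WT (-0.45).

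With each library left out in turn, members called were 1 to 2 in VAS Stra6-/- against VAS WT and 2 to 3 for the interaction, and genes called in VAD WT against VAS WT were 1260 to 2651. The interaction of Rbp3 lost its call in 17 of 20 such fits (limma adjusted p of 0.0533 to 0.0852), all but those without VAD WT replicate 1, 3 or 5. In VAS Stra6-/- against VAS WT, log2 differences ranged from -0.0257 to 0.28 for Rbp4 and from -0.0204 to 0.24 for Crabp2, and ratios from -0.0126 to 0.25 for Rbp4 to RPE markers and from -0.15 to 0.13 for Rbp4 to Ttr. In VAD WT against VAS WT the ranges were -0.18 to 0.32 for Rbp4 and -0.14 to 0.34 for Rbp3, and for ratios -0.19 to 0.0024 (Rbp3 to rod markers), -0.31 to 0.55 (Crabp1 to amacrine markers) and -0.0693 to 0.18 (Crabp1 to Crabp2). In VAD Stra6-/- against VAS Stra6-/- they were -0.42 to 0.10 for Crabp1, -0.044 to 0.47 for its ratio to amacrine markers and -0.53 to 0.0288 for that to Crabp2. In VAD Stra6-/- against VAD WT Crabp2 ranged from -0.0854 to 0.22. Interactions ranged from -0.0518 to 0.45 for Rbp4 and from -0.20 to 0.11 for Crabp2. Replicate numbers did not pair the libraries: over 30 pairs the correlation of deviations was -0.07 to 0.07, 0 exceeded 0.1, and 1 of 20 libraries correlated best with its own number in every other group. With the replicate number as a block, 2, 2, 3, 3 and 3 members and 4820, 1446, 9937, 10423 and 8193 genes were called in the 4 comparisons and the interaction, and Stra6 in VAS Stra6-/- against VAS WT was -2.04. Depth limits the values of Rbp4, which rested on 23 to 80 reads, and of Crabp1, on 18 to 154, through a counting error that stays below the spread between libraries for Rbp4.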
